A study of Mus musculus with 9 samples.

Results

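The genes described here are 42 listed genes of mitosis and of the spindle, from the cyclins and kinases that start the division to the proteins that part the daughter cells. Of the 42, 41 had a probe set that the platform annotation gives a single gene symbol, out of 18194 genes so named, and each gene was read from its brightest such probe set over the 9 arrays. The cyclin gene Ccnb1 had none and is not analysed here. All 41 lay above the brightness filter, a mean log2 signal of 6.83, that left 9097 genes for testing.

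A cell enters mitosis when cyclin-dependent kinase 1 is switched on by its cyclins and by the CDC25 phosphatases, and Polo-like and Aurora kinases then build the spindle. The spindle assembly checkpoint holds the chromosomes until each is attached, after which the anaphase-promoting complex marks securin and the cyclins for destruction and separase cuts the rings that hold sister chromatids together. Most of these genes are transcribed late in the cycle and are silent in resting cells, so their RNA is widely read as a sign of dividing cells, which in marrow are mainly blood precursors.

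RNA came from bone marrow cells of FVB/NJ mice sorted as negative for CD45.1 and for Ter119, a mark of late erythroid cells, and called stromal cells by the labels. It was amplified with biotin by 3' in vitro transcription and hybridised to Affymetrix mouse arrays. Wild type mice (WT below), leukemic mice at the E phase, early disease with leukemic cells at 1 to 5% of the marrow, and leukemic mice at the M phase, medium disease at 5 to 50%, gave 3 arrays each, which the labels call biological replicates. The other phases of the design are not analysed here, and how the leukemia was started, the age of the mice and any pooling are not given in the sources used here.

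The 18 mesenchymal niche markers did not bear out the stromal label equally in the 3 groups. Their mean log2 signal stood at 7.46 ± 0.06 on the WT arrays, 7.48 ± 0.12 on the E arrays and 11.09 ± 0.09 on the M arrays (SD, n = 3), and their summed linear signal ran from 15925 to 18792 in WT, from 21785 to 23819 in E and from 87729 to 105905 in M. The 21 measured erythroid markers averaged 12.05 ± 0.08 on the WT arrays, 11.83 ± 0.04 on the E arrays and 11.93 ± 0.58 on the M arrays, despite the Ter119 gate. No marker of either list was at 0 on any array. Other lists rose in M too: from a mean of 7.58 in WT to 11.31 in M for granulocyte markers, from 9.81 to 12.46 for chondrocyte markers and from 8.66 to 9.53 for pan-leukocyte markers. Their part in the results was not tested, and in bulk RNA fewer cells of a type and less RNA per cell cannot be told apart.

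Promoters of 8 of the genes are shown because the results turn on these genes. A stretch of 150 bases is given for each, from 130 bases before the annotated start to the 20 bases that follow it, from RefSeq on GRCm38.p6 and read 5′ to 3′ along the gene. Capitals mark the CCAAT box (ATTGG when it lies on the other strand) and the letters TTTGAA or TTCGAA of the cell cycle genes homology region, the element through which the DREAM and MuvB complexes act. Bub1b, Espl1, Plk1, Cdk1 and Ccnb2 fell in M, while Mki67, Cdc25b and Pttg1 did not pass the test between M and WT.
Bub1b, chr2:118598081-118598230, plus strand: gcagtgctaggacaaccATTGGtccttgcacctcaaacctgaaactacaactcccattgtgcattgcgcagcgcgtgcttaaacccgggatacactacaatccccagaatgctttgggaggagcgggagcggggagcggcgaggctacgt
Espl1, chr15:102296163-102296312, plus strand: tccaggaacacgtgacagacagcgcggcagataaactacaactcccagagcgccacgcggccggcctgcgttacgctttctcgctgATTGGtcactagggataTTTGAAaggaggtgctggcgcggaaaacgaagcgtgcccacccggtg
Plk1, chr7:122159305-122159454, plus strand: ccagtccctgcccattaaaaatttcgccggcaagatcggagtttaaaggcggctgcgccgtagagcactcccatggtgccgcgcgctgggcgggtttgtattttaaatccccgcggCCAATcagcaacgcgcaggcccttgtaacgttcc
Cdk1, chr10:69352893-69353042, minus strand: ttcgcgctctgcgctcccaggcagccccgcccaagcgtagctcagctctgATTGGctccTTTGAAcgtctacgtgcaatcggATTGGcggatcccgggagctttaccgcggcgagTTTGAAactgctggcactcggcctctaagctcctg
Ccnb2, chr9:70421535-70421684, minus strand: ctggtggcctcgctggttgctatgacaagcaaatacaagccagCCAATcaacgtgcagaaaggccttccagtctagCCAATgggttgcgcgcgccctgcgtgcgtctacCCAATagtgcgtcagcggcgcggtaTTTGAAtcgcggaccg
Mki67, chr7:135716360-135716509, minus strand: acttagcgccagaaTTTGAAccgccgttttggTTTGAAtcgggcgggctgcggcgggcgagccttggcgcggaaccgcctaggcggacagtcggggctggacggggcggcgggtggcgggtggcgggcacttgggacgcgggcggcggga
Cdc25b, chr2:131186818-131186967, plus strand: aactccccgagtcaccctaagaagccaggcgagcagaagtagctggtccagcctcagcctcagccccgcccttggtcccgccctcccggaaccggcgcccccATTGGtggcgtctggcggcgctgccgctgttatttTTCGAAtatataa
Pttg1, chr11:43425962-43426111, minus strand: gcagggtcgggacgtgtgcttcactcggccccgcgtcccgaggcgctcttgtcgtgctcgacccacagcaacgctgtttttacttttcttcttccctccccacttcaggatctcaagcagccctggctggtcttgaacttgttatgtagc

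The stretches of Cdk1, Ccnb2, Espl1 and Cdc25b held both elements, those of Bub1b and Plk1 held only the CCAAT box, that of Mki67 only TTTGAA, and that of Pttg1 neither. Over the full window of 250 bases before to 50 after the start, 34 of the 42 genes matched, with 37 windows. In that longer window Bub1b, Plk1 and Mki67 held both elements as well, and Pttg1 still held neither. Searched on both strands, CCAAT was found in 83.8% of these windows against 37.4% of all 32851 windows of that length in the table, and TTTGAA or TTCGAA in 81.1% against 19.2%. Both were found in 75.7% of the members' windows and in 7.52% of all windows. The GC box GGGCGG, which marks many promoters of widely used genes, was found in 81.1% against 35.7%, and TTTGGCGC or TTTCCCGC, forms of the E2F site, in 5.41% against 1.56%. The 27 measured genes with TTTGAA or TTCGAA in a window had a median difference between M and WT of -0.62 (log2), and the 6 without, Birc5, Cenpe, Mad2l1, Nek2, Nusap1 and Pttg1, one of -0.57. A match is a description of letters and was not tested as a binding site, and the strain of the reference differs from FVB/NJ.

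In the sorted cells the mitosis genes were lower in the medium phase than in wild type. In M against WT, 34 of the 41 fell, none rose and 7 did not pass the test (limma, adjusted p under 0.05 over all genes tested). The change touched much of the array: 43.5% of all genes tested were called lower and 25.3% higher. The median difference was -0.62 over the members and -0.19 over all genes tested (log2), and 39 of the 41 differences lay below 0. In 34 members all M arrays lay below all WT arrays, which held for 45.5% of all genes tested. Most members are bright, and among the 4549 genes with the brightest mean signal 60.8% were called lower in M, with 32 of the 37 members there among them. The median among these bright genes was -0.62 for the members and -0.34 for all.

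**Figure D1:**
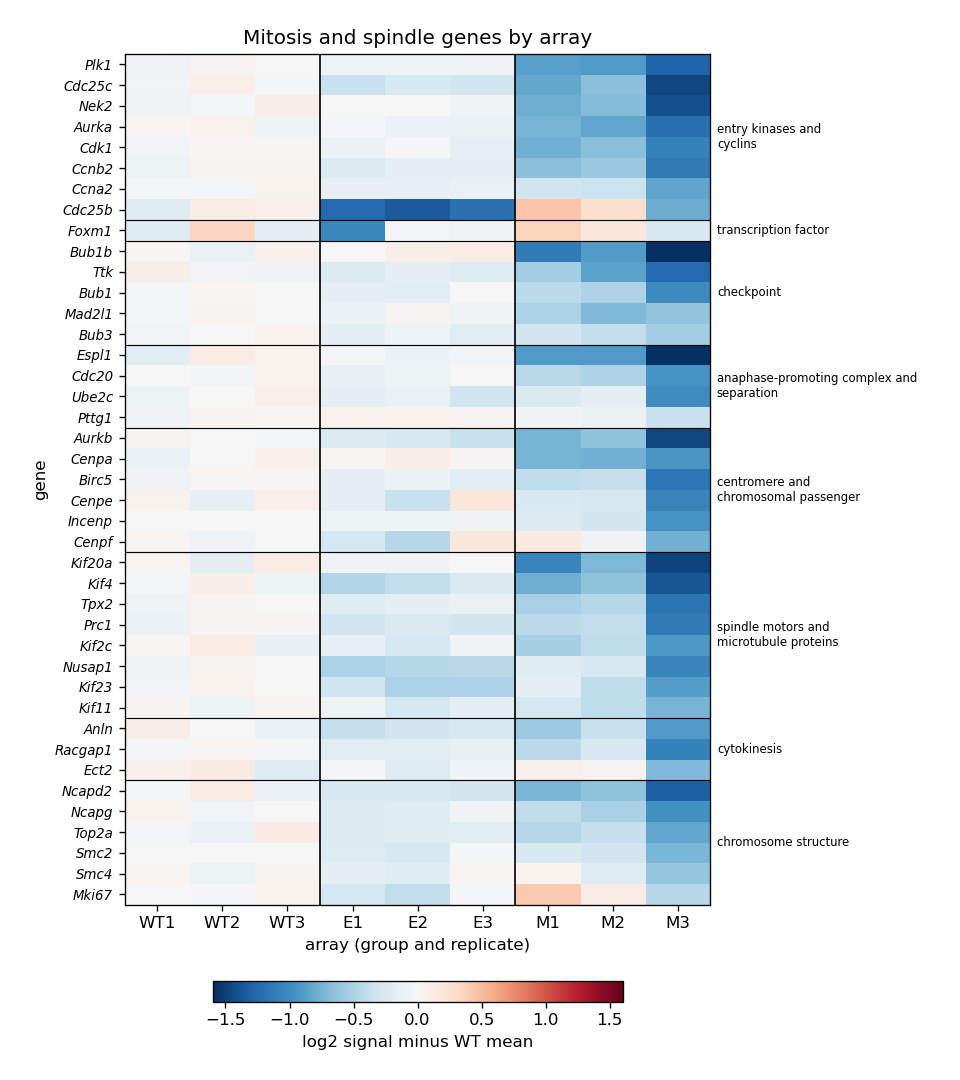
Heat map of the 41 measured genes by array, ordered by role and then by the difference between M and WT, with the log2 signal minus the gene's WT mean as colour (blue lower, red higher). The M columns are blue for most genes, the darkest column is M3, and Cdc25b is the row that is dark in the E columns.

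The fall depended on the M arrays to different degrees and on the scale of the arrays. Without M3, the array that stood apart, 33 members fell and 2, Cdc25b and Mki67, rose, with a median of -0.46 against -0.16 over all genes tested. In that fit 3976 of the 9097 genes tested were called lower and 2358 higher. The deposited values are scaled to one trimmed mean per array. With quantile normalization 31 members fell and none rose, beside 4647 of the 9097 genes tested called lower. The median was then -0.55 for the members and -0.28 for all genes tested, a smaller gap than in the deposited scaling. With arrays centred on their median or scaled on the poly-A spike-ins all 41 fell. Of the 9097 genes tested, 7478 were called lower with centring, 7032 with all spike-ins and 7222 with 12 of them. The medians were -1.50 to -1.68 for the members and -1.06 to -1.24 for all genes tested. Centring used the median of all 18194 genes, the dim ones that were not tested included. The median over all probe sets was 5.604 to 5.676 in WT and 6.241 to 6.28 in M. Over the genes tested it was 9.756 to 9.757 in WT and 9.846 to 9.88 in M.

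The kinases, phosphatases and cyclins that start mitosis fell as a group with one exception. In M against WT 7 of the 8 measured fell, with a median difference of -0.88 (log2). Of all genes tested 43.5% were called lower, and of the 4549 brightest 60.8%. Cdk1, the kinase that drives entry into mitosis, had log2 signals of 12.98, 13.05 and 13.05 in WT, 12.93, 13.00 and 12.90 in E, and 12.26, 12.36 and 11.95 in M. WT and E arrays overlapped and all M arrays lay below them, and the difference between M and WT was -0.84 (SE 0.0931, adjusted p = 1.51e-05). Plk1, the Polo-like kinase of spindle assembly, stood at 10.95, 11.04 and 11.00 in WT, at 10.93, 10.93 and 10.94 in E, and at 10.13, 10.10 and 9.72 in M. Its M arrays lay apart from the other 6, and its signal was 2.01-fold lower in M than in WT (log2 difference -1.01, SE 0.102, adjusted p = 7.54e-06). Aurka, the Aurora kinase of the spindle poles, and Nek2, a kinase that splits the centrosomes, fell by 0.93 and 0.96. Ccnb2 and Ccna2, the mitotic B-type and A-type cyclins, fell by 0.80 and 0.51, and Cdc25c, a phosphatase that activates Cdk1, fell by 0.98.

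Cdc25b, the phosphatase that starts the activation of Cdk1 at the centrosome, followed another course. Its log2 signals were 9.16, 9.48 and 9.44 in WT, 8.12, 8.02 and 8.16 in E, and 9.80, 9.62 and 8.56 in M. All E arrays lay below all others, and the M arrays spread over the WT range, with M1 and M2 above every WT array and M3 below. The difference was -1.26 between E and WT (SE 0.259, adjusted p = 0.0332), 1.23 between M and E (adjusted p = 0.0014) and -0.03 between M and WT (95% interval -0.60 to 0.54). The call in E, rather than the fall, needed all WT and E arrays: leaving out any one raised its adjusted p above 0.05, to 0.145 at most. The calls over all genes tested dropped then too, from 192 to between 98 and 113. Without M3, whose spread enters the shared error of the fit, the adjusted p of Cdc25b was 7.46e-06 and 836 genes were called. The rise from E to M was 0.08 with arrays centred on the median and 0.30 with all spike-ins (adjusted p = 0.782 and 0.161).

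Foxm1, the transcription factor that switches on many mitosis genes, gave no call. Its log2 signals were 7.18, 7.72 and 7.21 in WT, 6.34, 7.34 and 7.31 in E, and 7.73, 7.55 and 7.13 in M. The groups overlapped throughout, and the difference between M and WT was 0.10 (95% interval -0.54 to 0.74). A second probe set of the gene gave -0.63. Of those under the brightness filter, one with a mean of 6.37 gave -1.76 and one with a mean of 1.54 gave 1.11. The chosen probe set gave -0.96 with arrays centred on the median, so the direction of Foxm1 is not settled here.

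All 5 measured genes of the spindle assembly checkpoint fell in M against WT, with a median of -0.65, as did 43.5% of all genes tested. Bub1b, which encodes the checkpoint protein BubR1, had the lowest difference of all members. Its log2 signals were 11.48, 11.34 and 11.52 in WT, 11.44, 11.54 and 11.57 in E, and 10.33, 10.55 and 9.82 in M, so that E and WT arrays overlapped and the M arrays lay below both. The difference between M and WT was -1.22 (SE 0.149, adjusted p = 3.02e-05), or 2.33-fold lower. Mad2l1, which encodes the Mad2 protein that blocks the anaphase-promoting complex, stood at 13.04, 13.11 and 13.07 in WT, at 12.98, 13.11 and 13.02 in E, and at 12.56, 12.37 and 12.44 in M. It fell by 0.62 (SE 0.0663, adjusted p = 1.18e-05) with the M arrays close together. Bub3, the partner that brings the BUB proteins to kinetochores, stood at 13.46, 13.51 and 13.57 in WT, at 13.36, 13.43 and 13.34 in E, and at 13.22, 13.13 and 12.95 in M. The 3 groups did not overlap, and it fell by 0.41 between WT and M (adjusted p = 0.000453). The checkpoint kinases Bub1 and Ttk fell by 0.65 and 0.88.

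Of the 4 genes of the anaphase-promoting complex and of sister separation, 3 fell in M against WT, as did 43.5% of all genes tested. Espl1, which encodes separase, had log2 signals of 10.15, 10.45 and 10.38 in WT, 10.30, 10.24 and 10.29 in E, and 9.42, 9.42 and 8.71 in M. Its M arrays lay below all others, and its signal was 2.21-fold lower in M than in WT (log2 difference -1.14, SE 0.170, adjusted p = 0.000128). Pttg1, which encodes securin, the inhibitor of separase, stood at 13.58, 13.68 and 13.65 in WT, at 13.69, 13.69 and 13.67 in E, and at 13.58, 13.53 and 13.27 in M. M1 matched the lowest WT array, and the difference of -0.17 did not pass the test against WT (adjusted p = 0.0665) but a difference of -0.22 did against E (adjusted p = 0.0235). That call was lost on leaving out any E array (adjusted p up to 0.0629) and with quantile normalization (0.432). Its other bright probe sets gave 0.24 and -0.62 between M and WT. Cdc20, the activator of the complex, fell by 0.62, and by 1.00 and 1.15 on its other bright probe sets. Ube2c, the ubiquitin-conjugating enzyme that works with the complex, fell by 0.46 (adjusted p = 0.0371). That call was lost on leaving out any WT array or any E array (adjusted p up to 0.104) and with quantile normalization. The E arrays are no part of this difference and enter its call only through the shared error of the fit.

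Among the centromere and chromosomal passenger genes 5 of 6 fell in M against WT, beside 43.5% of all genes tested. Cenpa, the histone that marks centromeres, had log2 signals of 13.46, 13.56 and 13.62 in WT, 13.57, 13.64 and 13.59 in E, and 12.80, 12.78 and 12.62 in M. The M arrays lay close to each other and apart from the other 6, with a difference from WT of -0.81 (SE 0.0675, adjusted p = 1.58e-06). Aurkb, the kinase of the chromosomal passenger complex, stood at 11.59, 11.54 and 11.52 in WT, at 11.33, 11.29 and 11.19 in E, and at 10.80, 10.91 and 10.09 in M. The 3 groups did not overlap, and its signal was 1.94-fold lower in M than in WT (adjusted p = 0.000446). Birc5 (survivin) and Incenp, further members of that complex, fell by 0.64 and 0.49. Cenpe, a kinesin of the kinetochore, fell by 0.53 (adjusted p = 0.0394). That call was lost without M3, where the difference was -0.26, with array weights and with the replicate block. It was also lost without any WT array or E1 (adjusted p up to 0.105), of which E1 enters only through the shared error of the fit. Cenpf, a large kinetochore protein, stood at 10.27, 10.19 and 10.24 in WT, at 9.96, 9.78 and 10.42 in E, and at 10.40, 10.19 and 9.47 in M. Its groups overlapped, and the difference between M and WT was -0.21 (95% interval -0.69 to 0.27).

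All 8 spindle motors and microtubule proteins fell in M against WT, with a median of -0.63, beside 43.5% of all genes tested. Kif20a, a kinesin of the late spindle, had log2 signals of 10.91, 10.74 and 11.01 in WT, 10.84, 10.83 and 10.89 in E, and 9.83, 10.17 and 9.41 in M. E lay within the WT range and M below it, with a difference of -1.08 (SE 0.156, adjusted p = 0.000102). Kif23, the kinesin of the central spindle, stood at 10.13, 10.23 and 10.17 in WT, at 9.86, 9.67 and 9.69 in E, and at 10.04, 9.77 and 9.30 in M. E and M shared a range below WT, and M fell by 0.48 from WT (adjusted p = 0.0179, and 0.0577 without WT2). Nusap1, which bundles spindle microtubules, stood at 12.25, 12.34 and 12.31 in WT, at 11.79, 11.85 and 11.86 in E, and at 12.11, 12.04 and 11.24 in M. All E arrays lay below WT, M1 and M2 lay between, and M3 lay lowest. Its fall of 0.50 in M (adjusted p = 0.0263) was lost without any one WT array (adjusted p up to 0.0714). The kinesins Kif4, Kif2c and Kif11 fell by 0.93, 0.62 and 0.48, Prc1, which crosslinks the central spindle, by 0.64, and Tpx2, which activates Aurora A on the spindle, by 0.71.

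Among the 3 cytokinesis genes 2 fell in M against WT, a share near the 60.8% called lower among the 4549 brightest genes. Anln, which encodes the ring scaffold anillin, had log2 signals of 11.61, 11.51 and 11.42 in WT, 11.14, 11.20 and 11.25 in E, and 10.93, 11.15 and 10.60 in M. WT lay above all other arrays and E and M overlapped, with a difference of -0.62 between M and WT (SE 0.119, adjusted p = 0.000759). Racgap1, the partner of Kif23 at the central spindle, fell by 0.57. Ect2, the exchange factor that switches on the contractile ring, stood at 11.21, 11.26 and 10.92 in WT, at 11.10, 10.92 and 11.06 in E, and at 11.21, 11.18 and 10.42 in M. M1 and M2 lay inside the WT range and M3 below it, and the difference was -0.19 (95% interval -0.60 to 0.21).

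Of the 6 genes of chromosome structure 4 fell in M against WT, again a share near the 60.8% called lower among the 4549 brightest genes. Ncapd2, a condensin subunit, had log2 signals of 11.18, 11.32 and 11.10 in WT, 10.96, 10.96 and 10.90 in E, and 10.47, 10.55 and 9.89 in M. The groups lay in 3 separate ranges, and the difference between M and WT was -0.89 (SE 0.146, adjusted p = 0.000253). Top2a, the topoisomerase that untangles sister chromatids, stood at 13.38, 13.31 and 13.54 in WT, at 13.19, 13.21 and 13.24 in E, and at 12.95, 13.04 and 12.58 in M. Its groups did not overlap either, and it fell by 0.55 (adjusted p = 0.000833). The condensin subunits Ncapg and Smc2 fell by 0.64 and 0.43, while Smc4, the partner of Smc2 in the same ring, differed by -0.25 (95% interval -0.55 to 0.06).

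Mki67, which encodes the proliferation antigen Ki-67 on the chromosome surface, did not follow the others. Its log2 signals were 13.26, 13.24 and 13.32 in WT, 12.99, 12.88 and 13.24 in E, and 13.69, 13.39 and 12.81 in M. M1 and M2 lay above every WT array and M3 below every WT and E array. The difference between M and WT was 0.03 (95% interval -0.37 to 0.42). Without M3 it was 0.27 (adjusted p = 0.0242), and with arrays centred on the median it was -1.03 (adjusted p = 0.000222). The sign of the Mki67 difference thus turned with the scaling, and its call depended on M3 as well.

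**Figure D2:**
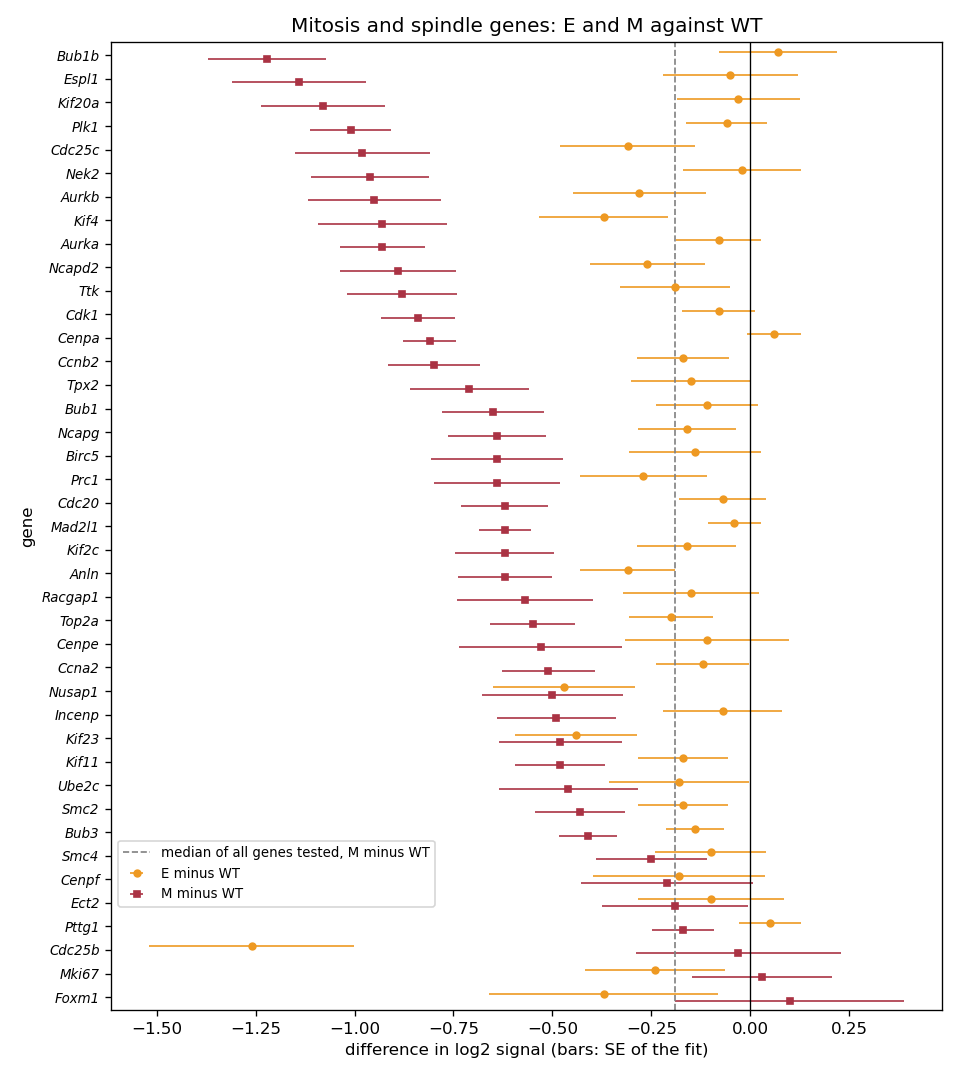
Difference in log2 signal from WT for each measured gene, E as orange circles and M as red squares, with the SE of the fit as bars and the median of all genes tested in M against WT, -0.19, as a dashed line. The M squares reach from -1.22 for Bub1b to 0.10 for Foxm1, and Cdc25b is the gene whose E circle lies at -1.26.

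The early phase differed little from wild type in single genes. In E against WT 1 of the 41 members, Cdc25b, was called lower and none higher, beside 1.65% and 0.462% of all genes tested. The differences leaned one way: 38 of the 41 lay below 0, with a median of -0.15 against 0.01 for all genes tested, and 23 had all E arrays below all WT arrays, against 14.7% of all genes tested. With arrays centred on the median the members' median was -0.06 against 0.10. Before adjustment 5 members had p under 0.05, and the largest falls after Cdc25b were those of Nusap1 at -0.47 and Kif23 at -0.44, neither past the adjusted threshold (adjusted p = 0.261 and 0.226). Without M3, whose spread enters the shared error of the fit, 9 members were called lower in E: Cdc25b, Cdc25c, Aurkb, Kif23, Kif4, Nusap1, Prc1, Anln and Ncapd2. In that fit 6.08% of all genes tested were called lower. None of the 9 E differences changes in size when M3 is left out, since M3 is no part of them.

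Between the early and the medium phase the members' median shifted together with that of all genes. In M against E 29 members fell, 1 rose and 11 did not pass, with a median of -0.46 against -0.19 over all genes tested, of which 43.9% were called lower and 26.1% higher. Without M3 26 fell and 3 rose, Cdc25b, Mki67 and Nusap1, and the median was -0.24 against -0.15 over all genes tested. Set against the median of all genes, the members' median was lower by 0.28 in M against E and by 0.16 in E against WT. Without M3 these gaps were 0.09 and 0.16, and with quantile normalization 0.10 and 0.17, so which step was larger was not settled. The largest falls without M3 were those of Bub1b, Espl1, Kif20a, Plk1 and Cenpa, at -1.08, -0.85, -0.85, -0.82 and -0.81. The step from E to M differed from the step from WT to E in 10 members, by a test of that difference that was passed by 51.2% of all genes tested. Both steps share the E arrays.

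**Figure D3:**
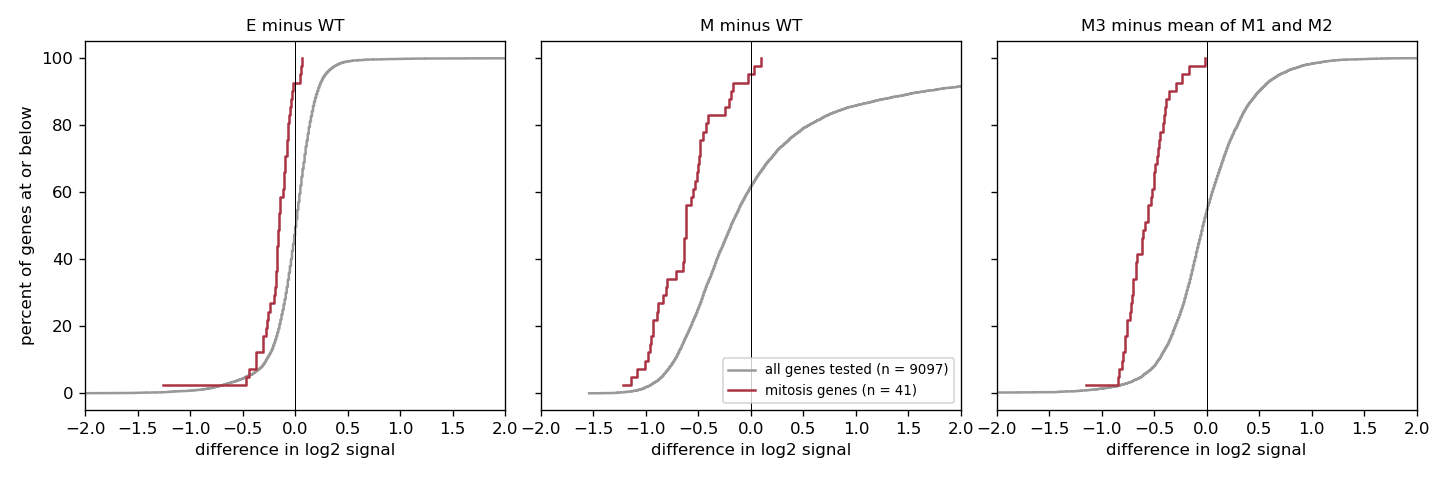
Cumulative percent of genes at or below each difference in log2 signal, with the 41 mitosis genes in red and the 9097 genes tested in grey, for E minus WT, M minus WT and M3 minus the mean of M1 and M2 (differences beyond 2 in size are not drawn). The red line lies left of the grey one through most of each panel, with medians of -0.15, -0.62 and -0.59 against 0.01, -0.19 and -0.03.

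M3 held less of nearly every mitosis RNA than the other M arrays. In 40 of the 41 members M3 lay below both M1 and M2, which was so for 45.6% of all genes tested, and Mad2l1 was the exception. The median of M3 minus the mean of M1 and M2 was -0.59 over the members and -0.03 over all genes tested, while M1 and M2 differed by a median of 0.02. A single array allows no test of this difference. It was lowest for Cdc25b at -1.15, Nusap1 at -0.84 and Cenpf at -0.83, and nearest to 0 for Mad2l1 at -0.02, Cenpa at -0.17 and Bub3 at -0.23. Only Cdc25b was lower by 1 or more on the log2 scale, as were 1.41% of all genes tested. The centromere and passenger genes and those of cytokinesis had medians of -0.77 and -0.76, and the entry kinases and cyclins one of -0.51.

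**Figure D4:**
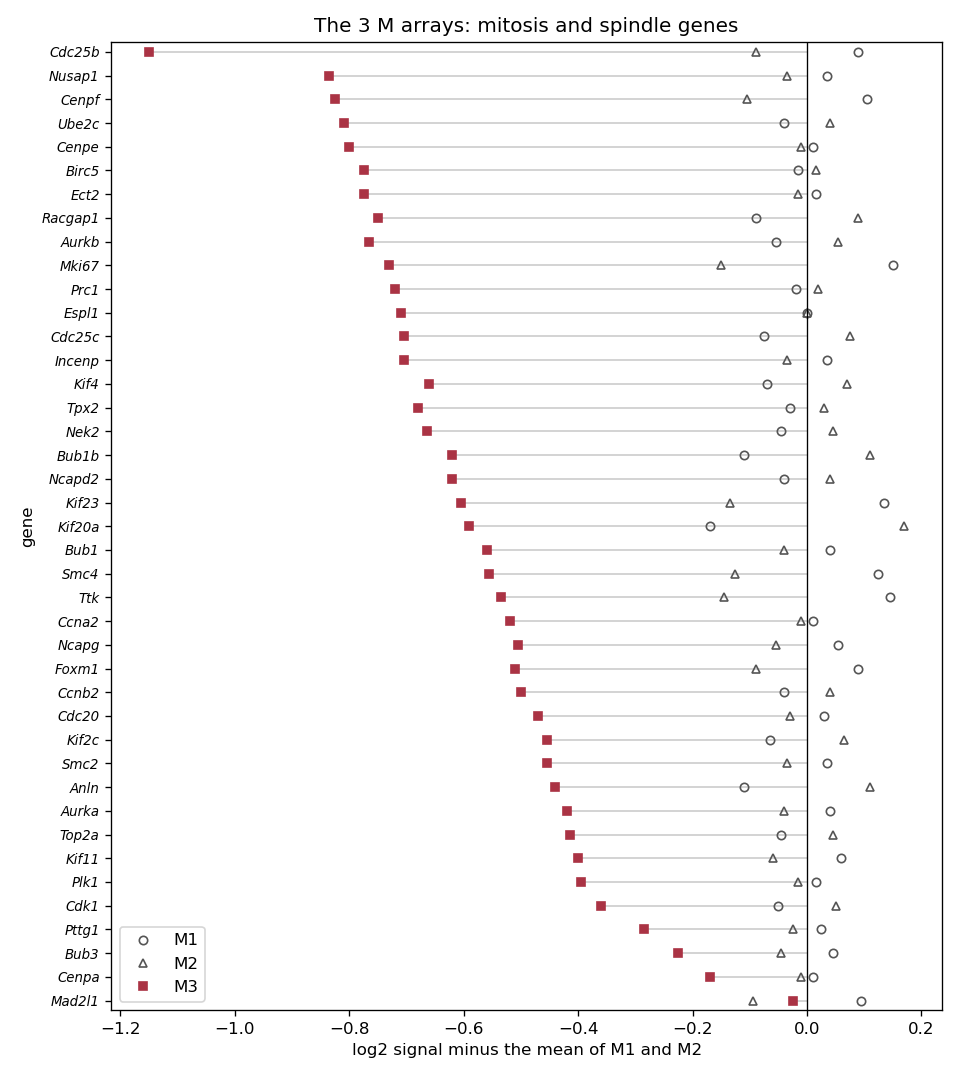
Log2 signal of each measured gene on the 3 M arrays minus the mean of M1 and M2, with M1 and M2 as open symbols and M3 as filled squares. The M3 squares run from -1.15 for Cdc25b to -0.02 for Mad2l1, and the open symbols stay near 0.

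Against WT, the members' median was -0.46 for the mean of M1 and M2 and -1.0 for M3, beside -0.16 and -0.23 over all genes tested. Of the 41, 36 lay below WT in the mean of M1 and M2, or 87.8%, as did 60.6% of all genes tested. Their summed linear signal ran from 209066 to 217977 in WT, from 193374 to 199423 in E, and was 168305 on M1, 163156 on M2 and 116444 on M3. Other lists moved with M3. The erythroid markers had a median of -0.86 for M3 against M1 and M2, with 19 of 21 below both, and their summed linear signal was 210928 on M1, 195298 on M2 and 118137 on M3. B lineage markers lay higher on M3 by a median of 1.02, pan-leukocyte markers by 0.47, chondrocyte markers by 0.35, granulocyte markers by 0.23 and mesenchymal niche markers by 0.21. The part of these cells in the low values of M3 was not tested. On M1 and M2 the erythroid mean log2 signals were 12.24 and 12.29 against a WT mean of 12.05, and the medians over the markers, 12.91 and 12.89, lay within the WT arrays' 12.76 to 13.02. Single erythroid markers differed widely. In the mean of M1 and M2, 8 of the 21 lay below WT, with differences from -0.82 to 1.98 and a median of 0.05. The mean of the 3 M arrays lay below the WT mean in 18 of the 21. The median difference was then -0.20, beside -0.19 over all genes tested. The mitosis genes had means of 11.28 on M1 and 11.26 on M2 against 11.70 in WT, and the part of the erythroid cells in that difference was not tested.

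**Figure D5:**
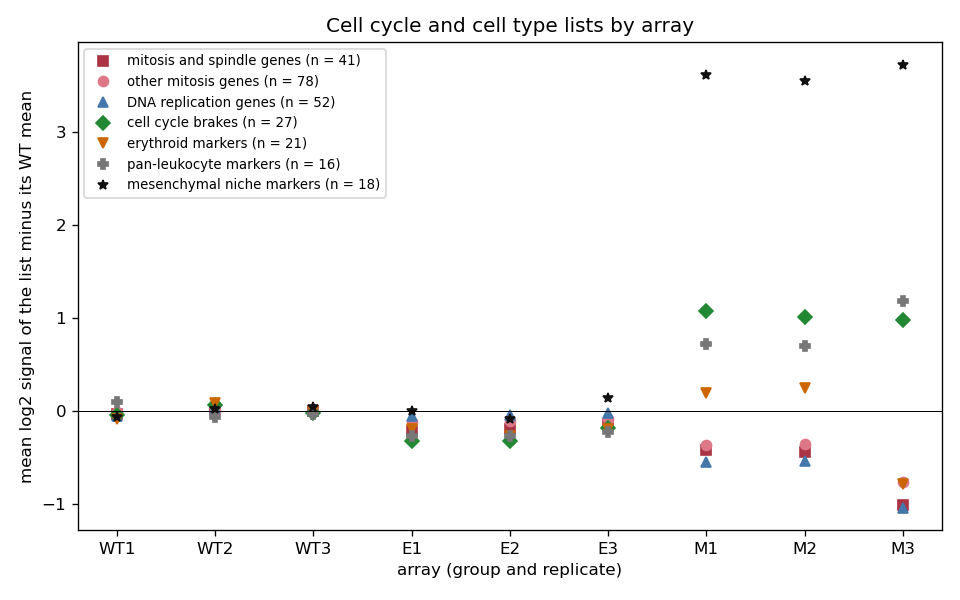
Mean log2 signal of 7 gene lists on each array minus the list's WT mean. On M1 and M2 the mitosis, other mitosis and DNA replication lists lie below 0 and the mean of the erythroid list above it (the median of its markers lies within the WT arrays), on M3 all 4 lie below 0, and the mesenchymal niche list lies above 3 on every M array.

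Other genes of the cycle moved in the same direction. Of 74 tested genes in a second list of mitosis genes, mostly kinetochore, centrosome and spindle proteins, 63 fell in M against WT and 1 rose, with a median of -0.53. Over all genes tested 43.5% were called lower and 25.3% higher, with a median of -0.19. Trip13, the ATPase that takes the checkpoint complex apart, had log2 signals of 12.30, 12.21 and 12.35 in WT, 12.28, 12.34 and 12.26 in E, and 11.31, 11.31 and 11.22 in M. Its M arrays lay together below the rest, including M3, with a difference of -1.0 (SE 0.0631, adjusted p = 1.81e-07). Cenpp, a subunit of the inner kinetochore, stood at 11.57, 11.55 and 11.55 in WT, at 11.31, 11.36 and 11.30 in E, and at 10.64, 10.69 and 10.59 in M. The groups did not overlap, and it fell by 0.92 in M (adjusted p = 3.19e-07). Cep55, a protein of the last step of cell separation, was the one that rose, from 7.89, 7.65 and 7.80 in WT and 7.53, 7.41 and 7.73 in E to 8.55, 8.50 and 8.63 in M (difference 0.78, adjusted p = 0.000443). With arrays centred on the median its difference was -0.27, so that its direction turned with the scaling.

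Genes of DNA replication, the phase before mitosis, fell in 48 of 52 cases in M against WT and rose in none. Over all genes tested 43.5% were called lower and 25.3% higher. The median was -0.73 over the list and -0.19 over all genes tested. The list is bright, with a mean log2 signal of 12.35 in WT, and among the 4549 brightest genes 60.8% were called lower. Rfc1, the large subunit of the clamp loader, had log2 signals of 11.25, 11.27 and 11.28 in WT, 11.15, 11.15 and 11.19 in E, and 10.42, 10.33 and 10.20 in M. Tipin, a protein that steadies the replication fork, stood at 13.43, 13.57 and 13.53 in WT, at 13.36, 13.39 and 13.46 in E, and at 12.72, 12.74 and 12.62 in M. The M arrays of both lay well below the rest, with falls from WT of 0.95 for Rfc1 (adjusted p = 7.74e-07) and 0.82 for Tipin (adjusted p = 8.26e-07). On M3 51 of the 52 lay below both other M arrays, as did 45.6% of all genes tested. In E against WT neither the replication list nor the second mitosis list held a call. Without M3 they held 1 and 9 genes called lower, beside 6.08% of all genes tested.

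The list of cell cycle brakes, which holds inhibitors and repressors as well as a few genes that act with the dividing cell, split. Of 25 tested, 13 rose and 10 fell in M against WT, with a median of 0.40, beside 25.3% and 43.5% of all genes tested. The share that fell was thus near that of all genes. Cdkn1a, the inhibitor p21, had log2 signals of 8.90, 8.89 and 8.73 in WT, 8.41, 8.44 and 8.58 in E, and 11.78, 11.85 and 11.94 in M. All M arrays lay far above the others, M3 included, and its signal was 8.09-fold higher in M than in WT (log2 difference 3.02, SE 0.0903, adjusted p = 1.19e-09). Ccng2, a cyclin of arrested cells, stood at 7.73, 7.44 and 7.75 in WT, at 7.50, 7.68 and 7.23 in E, and at 10.67, 10.47 and 10.72 in M. It was 7.88-fold higher in M than in WT (adjusted p = 2.58e-08), and both stayed higher under every scaling tried, by 1.92 to 3.04 on the log2 scale. In the deposited scaling the inhibitors Cdkn1b and Cdkn1c rose by 1.04 and 2.47, and Gas1 and Gadd45b, genes known for growth arrest, by 5.57 and 4.04. They fall outside the rule by which genes were given values per array. All of them are risers, while 10 of the 25 tested genes of the list fell, and Gas1 had the largest rise of the list. Centring on the median lowers every M against WT difference by the same amount, that of Cdkn1a from 3.02 to 1.96. The rise of Cdkn1b was of about that amount, so its direction is not settled here. Mybl2, an activator that works with the MuvB complex, stood at 9.54, 9.75 and 9.53 in WT, at 9.55, 9.51 and 9.46 in E, and at 9.01, 9.13 and 8.16 in M. Its M arrays lay below the rest, M3 lowest, and it fell by 0.84 (adjusted p = 0.00395), while its partner Lin9 fell by 0.47. Ccng1, a cyclin induced by p53, stood at 12.77, 12.71 and 12.58 in WT, at 12.79, 12.81 and 12.76 in E, and at 12.47, 12.40 and 12.44 in M. WT and E overlapped above M, and it fell by 0.25 (adjusted p = 0.00409). With arrays centred on the median the counts were 8 higher and 14 lower, beside 1004 and 7478 of the 9097 genes tested. The median was -0.66 against -1.24 over all genes tested, so the direction of the list as a whole turned with the scaling. In E against WT 2 of the list were lower, beside 1.65% of all genes tested. They were Btg2, by 1.14 (adjusted p = 0.000577), and Gadd45g, by 0.54 (adjusted p = 0.0492). Without M3 that count was 9, beside 6.08% of all genes tested. With quantile normalization, centring or spike-in scaling it was 1, beside 93 to 142 of the 9097 genes tested.

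The choice of probe set mattered for a few genes. Among 25 members with several bright probe sets, the 36 not chosen gave a larger fall in M than the chosen one in 20 cases and the opposite sign in 2, in Foxm1 and Pttg1. On 34 of the 36, M3 lay below the mean of M1 and M2. With the mean of all probe sets of a gene in place of the brightest, the M against WT calls of Aurka, Ttk, Ube2c, Kif2c, Tpx2, Nusap1, Racgap1 and Top2a were lost, with adjusted p up to 0.852.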

How the data were processed

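The values used are the authors' deposited log2 signals of 45101 probe sets on 9 arrays, made with MAS5 per the submitters' processing notes (no version is given in the sources used here). The trimmed mean of the linear signals was 500 on every array, so an array is comparable with another only after that scaling. No further normalization was applied. Of the probe sets, 34958 have 1 gene symbol in the platform annotation, 932 several and 9211 none listed, and the brightest probe set with 1 symbol stood for each gene. Genes in the brighter 50% by mean over all arrays were tested.

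limma 3.58.1 in R 4.3.3 fitted the 3 groups of 3 arrays together, with an intensity trend and Benjamini-Hochberg adjustment over 9097 genes, and was tested on simulated data. Called means adjusted p under 0.05. Differences are in log2 signal, with SE or 95% intervals from the fit. The number of arrays limits the precision. A p-value here sets a difference between groups against the spread within groups, shared over the 3 groups.

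The members and the lists were chosen with earlier results of these data known. Values per array are given for the members with the largest and smallest M against WT difference in each role, any called in E, the 3 largest and 3 smallest on M3, Mki67, Top2a, Cdk1, Foxm1 and Cdkn1a, and up to 2 genes per direction with the smallest adjusted p in the 3 other cell cycle lists. Alternatives covered the pseudocount, filter, scaling, probe set choice, trend, robust and weighted fits, a replicate block and each array left out. Scaling on 12 of the 27 spike-in probe sets was chosen after seeing the data.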

Additional observations from a re-analysis of the deposited data

Results flagged for a closer look

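In 10 of the 41 genes the step from E to M differed from the step from WT to E (limma, adjusted p under 0.05 for the difference of the steps), and each value here is the second step minus the first on the log2 scale. Both steps share the E arrays, so an error in their mean moves the steps in opposite directions. The difference was -1.36 for Bub1b, -1.04 for Espl1, -1.01 for Kif20a, -0.93 for Cenpa and -0.92 for Nek2, all genes whose first step lay between -0.05 and 0.07. It was -0.89 for Plk1, -0.77 for Aurka, -0.67 for Cdk1 and -0.54 for Mad2l1, whose first steps lay between -0.08 and -0.04. Cdc25b stood apart with 2.48, a fall of 1.26 in E followed by a rise of 1.23. With arrays centred on the median the difference of the steps passed in 39 members, 38 of them negative, and in 88.8% of all genes tested, against 51.2% in the deposited scaling.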

How the results depend on the processing

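The fall of the members in M against WT kept its direction under every scaling, filter and array left out, and its size followed the scaling. The members' median of -0.62 became -1.68 with arrays centred on the median, -1.50 with the 27 spike-in probe sets and -1.63 with 12 of them, where all genes tested moved to -1.24, -1.06 and -1.20. In M against E the median of -0.46 became -1.61 with centring, -1.38 with the 27 spike-in probe sets and -1.48 with 12. It lay between -0.56 and -0.24 with 1 array left out. The steps differed in 10 members, in 39 with centring and in 37 with all spike-ins, beside 51.2%, 88.8% and 78.4% of all genes tested. With 12 spike-in probe sets they differed in 37 members and with array weights in 16, where the share of all genes tested is not given here. The median of M3 against M1 and M2, -0.59, became -0.76 with centring, -0.68 with quantile normalization, -0.40 with all spike-ins and -0.47 with 12. Over all genes tested 2306 were called higher and 3953 lower in M against WT, and 1004 and 7478 with centring, 1063 and 7032 with all spike-ins.

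In E against WT 192 genes were called, and 118 with quantile normalization, 99 with the mean of probe sets, 85 with the stricter filter, 848 with array weights and 98 to 836 with 1 array left out, the highest without M3. The call of 1 member, Cdc25b, became 0 with quantile normalization, centring, the mean of probe sets, no intensity trend and the replicate block. It was also 0 with the stricter filter, which left Cdc25b untested. It became 7 with array weights, and 0 to 9 with 1 array left out. The stricter filter, which tests fewer genes, left 3466 calls of 6259 in M against WT and 3485 of 6368 in M against E. With the mean of probe sets Aurka, Tpx2 and Racgap1 turned in M against E, to 0.34, 0.09 and 0.04. The cause was not tested.

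The replicate numbers did not pair the arrays, with correlations of deviations from -0.0983 to 0.0841 for equal numbers. With the replicate block 33 members were called in M against WT and 31 in M against E, and 153, 6100 and 6248 genes in E against WT, M against WT and M against E.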
